A study of Rattus norvegicus with 6 samples.

Results

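The genes described here are the 10 that encode the NF-κB subunits and their best known inhibitors and regulators, namely Nfkb1, Nfkb2, Rel, Rela, Relb, Nfkbia, Nfkbie, Nfkbiz, Tnfaip3 and Bcl3. They were chosen by exact match of the symbol, and all 10 of 10 were found among the 20653 genes of the deposited tables and among the 14505 genes that were tested. RNA was sequenced from 3 libraries of NPS-EMSC, primary mesenchymal stem cells of SD rat nasal mucosa that, per the series title, overexpress neuropeptide S, and from 3 libraries of EMSC, the same kind of cell without that name. The labels give no age, no vector for either group, and no statement that the libraries came from separate animals or cultures, so p-values measure only the spread between these libraries, which may be technical, and effects of gene delivery cannot be told apart from those of the peptide. The counted reads per library numbered 39082245 to 39511976 in NPS-EMSC and 39314098 to 40261205 in EMSC. Nps, the neuropeptide S gene, had 93566, 77014 and 85916 reads in NPS-EMSC and 0, 0 and 10 in EMSC, which matched the labels of all 6 libraries.

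NF-κB is a family of transcription factors that act as dimers and switch on genes of inflammation, survival and adhesion. In resting cells the dimers are held in the cytoplasm by inhibitors of the IκB group, which are phosphorylated by the IκB kinase complex and destroyed when a cell meets a cytokine or a bacterial product. In the canonical branch the freed dimer is mainly RelA with p50, while in the non-canonical branch the precursor p100 is trimmed to p52, which pairs with RelB. Several of the inhibitor genes are themselves NF-κB targets, so that the pathway makes its own brakes. Gene counts do not measure phosphorylation, processing of the precursors or entry into the nucleus.

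Promoters of the family were searched for the motif that its own factors recognise. RefSeq windows of rat assembly GRCr8 were available for 9 of the 10 genes, and the 250 bases upstream of the annotated start were searched on both strands for the κB consensus, the 10-base NF-κB recognition motif. A match was present in 7 of these 9 genes (Nfkb2, Rel, Nfkbia, Nfkbie, Nfkbiz, Tnfaip3 and Bcl3). In windows of the same length the share was 3.82% of all 27457 genes and 4.61% of the 10966 tested genes with a window. Nfkb1 and Rela held no match in this window. The 100 bases before the start are shown for the 6 genes with a match in that stretch, so that the place of the motif can be seen beside the changes given further on. They are written 5′ to 3′ on the strand of the gene, with bases of a κB match in capitals.

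Nfkb2, chr1:255108274-255108373, plus strand: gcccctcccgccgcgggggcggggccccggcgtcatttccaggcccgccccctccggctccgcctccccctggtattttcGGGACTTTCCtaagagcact
Rel, chr14:101921939-101922038, minus strand: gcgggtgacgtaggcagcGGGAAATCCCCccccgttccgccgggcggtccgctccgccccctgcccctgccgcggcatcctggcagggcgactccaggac
Nfkbia, chr6:78597073-78597172, minus strand: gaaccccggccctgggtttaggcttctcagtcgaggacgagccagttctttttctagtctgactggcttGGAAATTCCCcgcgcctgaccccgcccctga
Nfkbiz, chr11:58251621-58251720, plus strand: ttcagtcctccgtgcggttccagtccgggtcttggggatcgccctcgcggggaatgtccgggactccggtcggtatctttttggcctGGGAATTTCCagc
Tnfaip3, chr1:15543980-15544079, minus strand: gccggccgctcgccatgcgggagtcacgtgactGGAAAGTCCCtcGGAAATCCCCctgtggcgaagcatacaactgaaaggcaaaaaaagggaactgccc
Bcl3, chr1:88613556-88613655, minus strand: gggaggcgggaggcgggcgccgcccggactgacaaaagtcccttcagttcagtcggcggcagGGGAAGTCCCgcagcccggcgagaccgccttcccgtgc

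The matches began 20 bases before the start in Nfkb2, 31 in Nfkbia, 38 in Bcl3 and 13 in Nfkbiz. Tnfaip3 held a closely spaced pair, beginning 67 and 55 bases before the start, and a further match beginning 170 bases before it. In Rel the capitals cover 3 overlapping matches, since the motif reads on both strands there. The match of Nfkbie lay farther out, beginning 164 bases before the start. A match describes the letters of the window and is not a measured binding site.

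The 10 genes did not move together. By the quasi-likelihood test of edgeR, 3 were called higher in NPS-EMSC (Nfkb2, Rel and Relb), 2 were called lower (Nfkb1 and Nfkbia) and 5 were not called (Rela, Nfkbie, Nfkbiz, Tnfaip3 and Bcl3). The threshold for a call was 0.05 on p-values adjusted by Benjamini-Hochberg across the 14505 genes. Of those genes 59.3% were called, 29.7% higher and 29.5% lower, so 5 called genes among 10 is close to the background and is no result about the family. Their median log2 fold change was 0.08 and their median absolute log2 fold change 0.29, against -0.0050 and 0.34 over all genes tested. None of the 10 reached a fitted change of 2-fold (0 higher, 0 lower), and the log2 fold changes ran from -0.94 to 0.66. Of all tested genes, 83.0% changed by less in absolute size than Nfkbia, the member at -0.94.

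**Figure D1:**
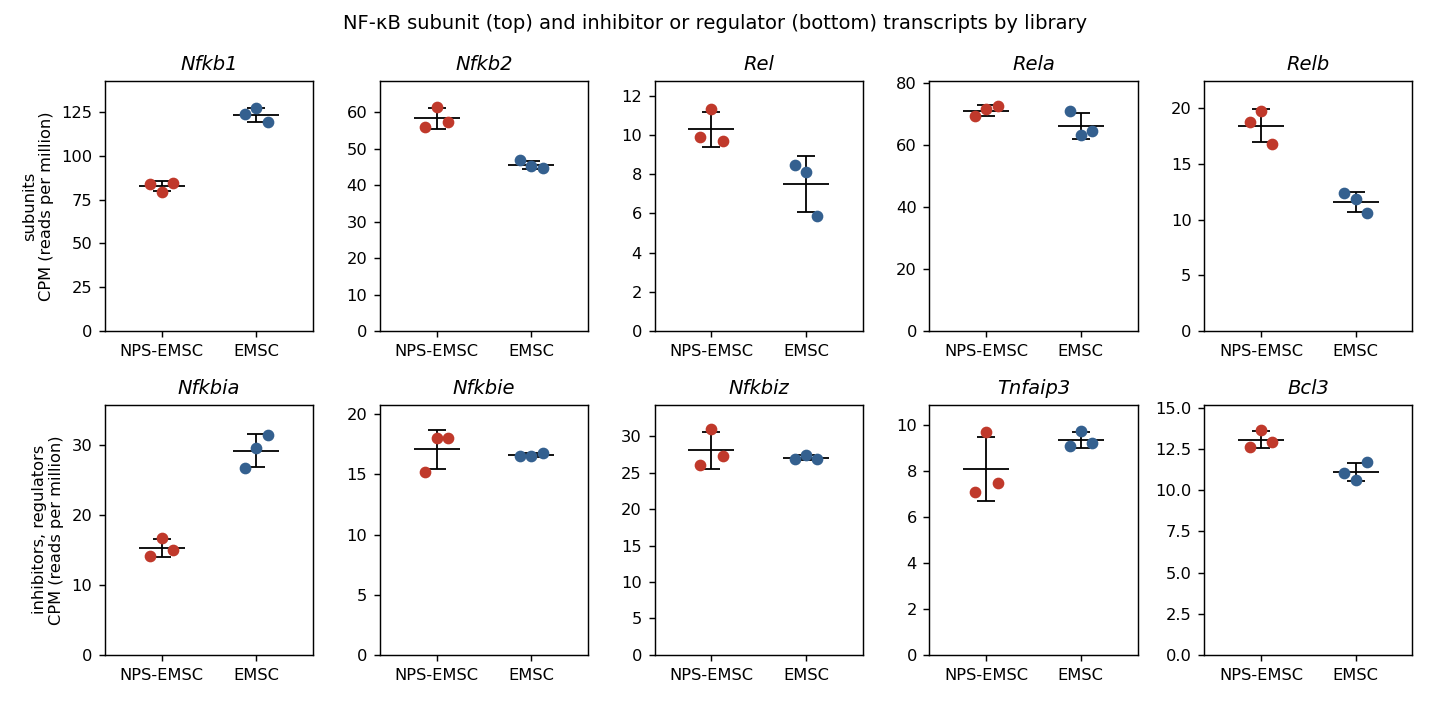
Level in CPM, counts scaled to library size (y axis from 0, own scale in each panel) of each gene in the 3 NPS-EMSC (red) and 3 EMSC (blue) libraries, with the mean and SD as black lines. Nfkb1 and Nfkbia sit lower in NPS-EMSC, Nfkb2, Rel and Relb sit higher, and the points of Rela, Nfkbie, Nfkbiz and Tnfaip3 overlap between the groups.

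Most markers of leukocytes were lower in NPS-EMSC. Of 16 markers 15 had a row and 10 were tested, 8 called lower and 2 higher, and all 15 together summed to 41.2 to 43.9 CPM in NPS-EMSC and 76.8 to 86.0 CPM in EMSC. Lyz2 set the direction of that sum. The other 14 summed to 37.9 to 39.1 CPM in NPS-EMSC and 25.7 to 31.9 CPM in EMSC. Most of that was Cd14, which was higher in NPS-EMSC. Of the 10 tested, 7 were called lower by at least 2-fold, several at few reads, and 1 was called higher by as much. Their median log2 fold change was -2.43. Ptprc, the pan-leukocyte CD45 gene, had 0, 1 and 0 reads in NPS-EMSC and 33, 20 and 41 in EMSC, and Lyz2, a lysozyme gene, stood at 3.84 ± 0.940 CPM in NPS-EMSC and 52.5 ± 7.71 CPM in EMSC (SD, n = 3 each). Cd14 and Cd74 were the markers called higher. Cd14 had 31.4 ± 0.614 CPM in NPS-EMSC and 15.1 ± 2.43 CPM in EMSC, while Cd74, named after its values were seen, had a log2 fold change of 0.80 at an edgeR adjusted p of 0.0388, a call lost in 6 of 17 alternatives (0.0187 to 0.175). In bulk RNA, fewer cells of a type and less RNA per cell cannot be told apart, and the part of leukocyte transcripts in the changes described here was not tested. All 10 mesenchymal markers were tested and 8 were called higher, among them Thy1 and Nt5e at log2 fold changes of 1.55 and 2.16. The 2 called lower, named after their values were seen, were Pdgfra at -0.95 and Nes at -0.997. Of 7 epithelial markers with a row 2 were tested and both were called higher, Krt8 with 5.75 ± 1.29 CPM in NPS-EMSC and 3.46 ± 0.421 CPM in EMSC and Krt18 with 5.99 ± 0.871 CPM in NPS-EMSC and 0.691 ± 0.196 CPM in EMSC, and neither of the 2 endothelial markers tested was called.

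Nfkb1 encodes p105, the precursor of p50, and was the subunit gene that fell. It stood at 84.0, 79.5 and 84.5 CPM in NPS-EMSC and at 123.5, 127.1 and 119.1 CPM in EMSC. The lowest EMSC library lay well above the highest NPS-EMSC library. The level was 82.7 ± 2.74 CPM in NPS-EMSC and 123.2 ± 4.02 CPM in EMSC (SD, n = 3 each), 1.49-fold lower, with a log2 fold change of -0.58 (SE 0.05, edgeR adjusted p = 2.11e-10).

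Nfkb2, which encodes p100, the precursor of p52, rose. Its values were 56.1, 61.5 and 57.5 CPM in NPS-EMSC and 46.9, 45.3 and 44.8 CPM in EMSC, and the groups did not overlap. The log2 fold change was 0.35 (SE 0.06, edgeR adjusted p = 1.33e-05), a rise of 1.28-fold. The motif of its promoter shown above lies nearest to the start among the 3 genes called higher or lower that hold one.

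Relb, the partner of p52, showed the largest rise among the 10. It had 18.7, 19.7 and 16.8 CPM in NPS-EMSC and 12.3, 11.9 and 10.6 CPM in EMSC, with no overlap. The log2 fold change was 0.66 (SE 0.10, edgeR adjusted p = 5.75e-06), or 1.58-fold. No promoter sequence of Relb was analysed here.

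Rel encodes c-Rel, a subunit known mainly from lymphocytes, and was the lowest of the 5 subunit genes per length in both groups. It had 9.87, 11.3 and 9.68 CPM in NPS-EMSC and 8.48, 8.14 and 5.89 CPM in EMSC. The groups were apart, but EMSC replicate 3 lay far under the other EMSC libraries. The log2 fold change was 0.45 (SE 0.14, edgeR adjusted p = 0.00847). Without EMSC replicate 3 it was 0.30 and no longer called (edgeR adjusted p = 0.0713). On the log2(FPKM + 1) scale it was 0.22 (limma adjusted p = 0.0587) and on log2(FPKM + 0.1) it was 0.39 (limma adjusted p = 0.0676). The size on these scales thus depends on the constant added, but neither was called. The call on Rel rests on that library and on the scale. Over the 17 alternatives its adjusted p ran from 0.00319 to 0.0948.

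Rela, the main transactivating subunit p65, was not called. It had 69.3, 71.7 and 72.5 CPM in NPS-EMSC and 71.0, 63.2 and 64.5 CPM in EMSC, and EMSC replicate 1 fell within the NPS-EMSC range. The 95% interval of the log2 fold change ran from -0.011 to 0.22, so a rise of up to 1.16-fold is allowed by these libraries. Without EMSC replicate 1 the log2 fold change was 0.15 and was called (edgeR adjusted p = 0.0254, 0.0254 to 0.471 over the alternatives).

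Nfkbia showed the largest change of the 10 in absolute size. It encodes IκBα, the inhibitor that binds RelA dimers and is remade quickly after each round of signalling. Its values were 14.1, 16.7 and 14.97 CPM in NPS-EMSC and 26.7, 29.5 and 31.5 CPM in EMSC, so every EMSC library lay above every NPS-EMSC library. The log2 fold change was -0.94 (SE 0.09, edgeR adjusted p = 2.21e-09), 1.91-fold lower, and 83.0% of all tested genes changed by less in absolute terms. Its fall stood beside a motif match in the promoter shown above, as did the rise of Nfkb2 and Rel. Matches were also present in Nfkbie, Nfkbiz, Tnfaip3 and Bcl3, which were not called, while Nfkb1, called lower, held none. A link between match and change was not tested.

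The other inhibitors and regulators were not called. Nfkbie encodes IκBε, a second cytoplasmic inhibitor that is slower to act, and had 15.2, 18.0 and 18.0 CPM in NPS-EMSC and 16.5, 16.5 and 16.8 CPM in EMSC. Its log2 fold change was 0.04 with an interval of -0.16 to 0.24, and on the FPKM scale it was -0.0060, so no direction can be given. Nfkbiz encodes IκBζ, a nuclear IκB protein that helps p50 at a set of late genes in mouse macrophages. It had 26.0, 30.9 and 27.3 CPM in NPS-EMSC and 26.9, 27.4 and 26.9 CPM in EMSC, with a log2 fold change of 0.05 and an interval of -0.11 to 0.22. The NPS-EMSC libraries spread on both sides of the EMSC values in these genes.

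Tnfaip3 encodes A20, a ubiquitin-editing enzyme that shuts off signalling from tumour necrosis factor receptors. It had 7.08, 9.67 and 7.47 CPM in NPS-EMSC and 9.06, 9.72 and 9.22 CPM in EMSC. NPS-EMSC replicate 2 was level with the EMSC libraries and the other NPS-EMSC libraries were lower. The log2 fold change was -0.21 with an interval of -0.49 to 0.08 (edgeR adjusted p = 0.201), and without NPS-EMSC replicate 2 it was -0.36 and was called (adjusted p = 0.0408, 0.0408 to 0.519 over the alternatives).

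Bcl3 encodes a nuclear IκB protein that binds p50 and p52 homodimers. It had 12.6, 13.7 and 12.9 CPM in NPS-EMSC and 11.1, 10.6 and 11.7 CPM in EMSC. The groups did not overlap, but the difference was small, with a log2 fold change of 0.23 (SE 0.11, edgeR adjusted p = 0.0729). It was called under none of the 17 alternatives tried (0 calls), where its adjusted p lay between 0.0562 and 0.184. In all, the groups were apart in 6 of the 10 genes, beside 64.7% of all genes tested.

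**Figure D2:**
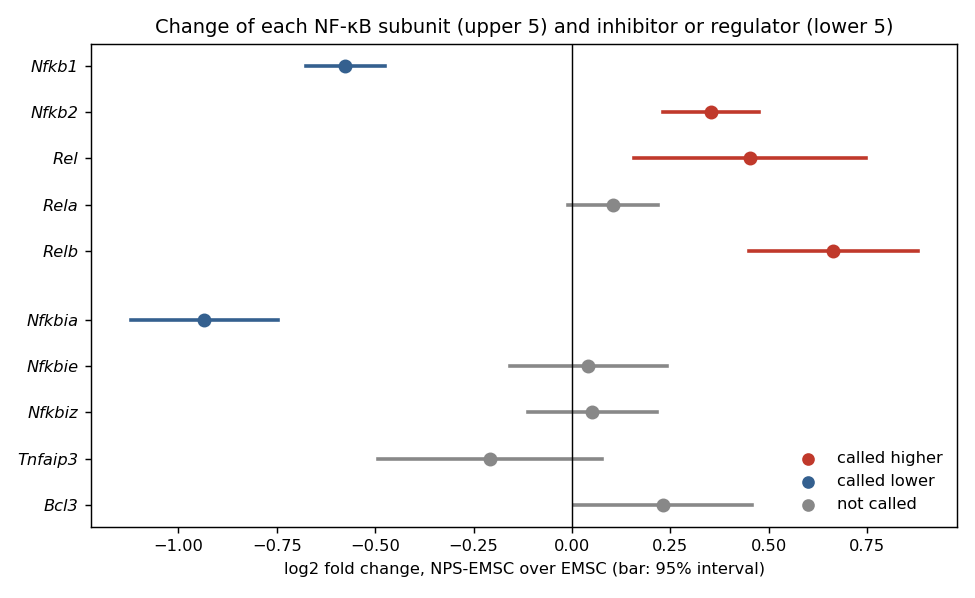
Log2 fold change of NPS-EMSC over EMSC (x axis) for the 5 subunit genes above and the 5 inhibitor or regulator genes below, each with its 95% interval, coloured by call. Nfkbia, at -0.94, lies farthest left, Relb, at 0.66, lies farthest right, and the intervals of Rela, Nfkbie, Nfkbiz and Tnfaip3 cross 0.

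Levels of different genes are compared per length, in the FPKM values of the authors. In NPS-EMSC the order was led by Rela at 28.6 ± 0.808 FPKM, followed by Nfkb1 at 19.0 ± 0.556 and Nfkb2 at 12.7 ± 0.685 FPKM (SD, n = 3). In EMSC Nfkb1 at 29.2 ± 0.848 and Rela at 27.5 ± 2.01 FPKM led and overlapped each other, and Nfkbia at 19.0 ± 1.47 FPKM came next, above Nfkbie at 10.5 ± 0.151 FPKM and Nfkb2 at 10.2 ± 0.334 FPKM, which overlapped. Nfkbia stood at 9.61 ± 0.888 FPKM in NPS-EMSC, where it overlapped Nfkbie at 10.5 ± 1.05 FPKM. Among the 10 genes IκBα was thus the leading inhibitor transcript in EMSC and level with IκBε in NPS-EMSC. Nfkbib, an inhibitor gene outside the 10 that is described below, stood at 9.93 ± 1.18 FPKM in NPS-EMSC and 6.625 ± 0.989 FPKM in EMSC. The middle of the NPS-EMSC order was Relb at 7.20 ± 0.593, Nfkbiz at 6.54 ± 0.631 and Bcl3 at 5.87 ± 0.272 FPKM, each overlapping the next. The middle of the EMSC order was Nfkbiz at 6.50 ± 0.0404 FPKM, then Bcl3 at 5.15 ± 0.280 and Relb at 4.68 ± 0.379 FPKM, of which the last pair overlapped. Rel and Tnfaip3 were lowest, at 1.30 ± 0.120 and 1.14 ± 0.204 FPKM in NPS-EMSC and at 0.981 ± 0.186 and 1.36 ± 0.0364 FPKM in EMSC.

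The make-up of the subunit transcripts differed between the groups. Nfkb1 held 28.4, 26.3 and 28.2% of the summed FPKM of the 5 subunit genes in NPS-EMSC and 38.9, 41.7 and 40.3% in EMSC, a difference of -12.7 percentage points between the means. Rela held 41.0, 41.4 and 42.4% in NPS-EMSC and 39.1, 36.2 and 38.2% in EMSC. Nfkb2 held 18.4 ± 0.680% in NPS-EMSC and 14.1 ± 0.190% in EMSC, Relb 10.4 ± 0.810% in NPS-EMSC and 6.43 ± 0.290% in EMSC, and Rel 1.89 ± 0.150% in NPS-EMSC and 1.35 ± 0.220% in EMSC (SD, n = 3 each). The shares of each of the 5 genes were apart between the groups. Shares add up to a whole, so a fall in one raises the others, and these values are a description with no test.

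**Figure D3:**
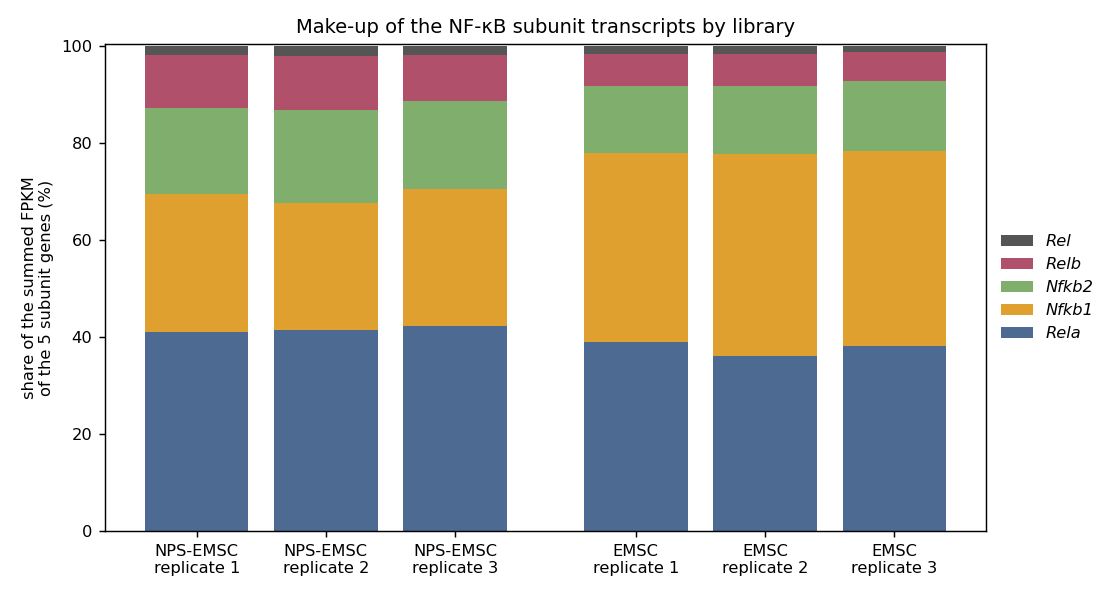
Share of each subunit gene in the summed FPKM of the 5 subunit genes (y axis, percent), 1 bar per library, NPS-EMSC on the left and EMSC on the right. The Nfkb1 band takes 26.3 to 28.4% in NPS-EMSC and 38.9 to 41.7% in EMSC, and the Nfkb2 and Relb bands are wider in NPS-EMSC.

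Ratios within each library showed the same unequal changes. For every unit of Rela FPKM there were 0.318, 0.364 and 0.323 units of Nfkbia in NPS-EMSC and 0.588, 0.731 and 0.763 in EMSC. Nfkb1 over Rela was 0.664 ± 0.0295 in NPS-EMSC and 1.07 ± 0.0784 in EMSC, and Nfkb2 over Nfkb1 was 0.667 ± 0.0547 in NPS-EMSC and 0.350 ± 0.0118 in EMSC (SD, n = 3 each). The 5 subunit genes summed to 67.5 to 70.0 FPKM in NPS-EMSC and 70.1 to 76.1 FPKM in EMSC, so their total differed far less than its make-up. The 5 inhibitor and regulator genes summed to 30.8 to 36.5 FPKM in NPS-EMSC and 41.1 to 44.3 FPKM in EMSC, with Nfkbia as the called gene among them. This sum leaves out the inhibitor gene Nfkbib, which was higher in NPS-EMSC, at 9.93 ± 1.18 FPKM against 6.625 ± 0.989 FPKM in EMSC. It is thus no total of all inhibitor transcripts.

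The kinases and the remaining IκB genes were also split. Of these 8 genes 3 were called higher, 3 lower and 2 were not called, beside 29.7% higher and 29.5% lower over all tested genes. Their median log2 fold change was -0.11. Chuk, the gene of IκB kinase α, the kinase of the non-canonical branch, had 53.3, 53.7 and 52.3 CPM in NPS-EMSC and 34.1, 35.6 and 33.5 CPM in EMSC. It rose by a log2 fold change of 0.63 (SE 0.06, edgeR adjusted p = 2.60e-09). Ikbkb, the gene of the canonical kinase β, stood at 44.4 ± 2.75 CPM in NPS-EMSC and 46.2 ± 0.464 CPM in EMSC (SD, n = 3 each) and was not called (adjusted p = 0.437). Map3k14, the gene of the NF-κB-inducing kinase that acts upstream of kinase α, fell to 13.3, 11.6 and 11.2 CPM in NPS-EMSC, against 16.3, 18.6 and 19.6 CPM in EMSC (log2 fold change -0.59, SE 0.11, adjusted p = 3.47e-05).

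Nfkbib, the gene of IκBβ, a further cytoplasmic inhibitor, had 13.4, 16.0 and 12.9 CPM in NPS-EMSC and 10.1, 9.72 and 7.59 CPM in EMSC. It rose with a log2 fold change of 0.62 (SE 0.13, edgeR adjusted p = 1.57e-04), opposite in sign to Nfkbia. Tbk1, an IκB-kinase-related kinase, rose with a log2 fold change of 0.29, and its relative Ikbke fell with one of -0.27. Ikbkg, the scaffold NEMO, had a log2 fold change of -0.16 at an adjusted p of 0.0482, and this call was lost in 12 of 17 alternatives, with adjusted p up to 0.162. Nfkbid, the gene of the nuclear IκBNS, was low, at 0.853 ± 0.148 CPM in NPS-EMSC and 1.11 ± 0.239 CPM in EMSC (SD, n = 3 each) and was not called.

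Among 36 adaptors, ubiquitin enzymes and brakes upstream of the kinases, 35 were tested, of which 13 were called higher, 8 lower and 14 were not called, beside the 59.3% called over all tested genes. The median log2 fold change was 0.06, and 7 in place of 13 were called higher when the FPKM values were tested. Irak2, an interleukin-1 receptor kinase, rose 1.81-fold, Traf2, an adaptor of tumour necrosis factor receptors, 1.47-fold, and Tab2, an adaptor of the kinase TAK1, 1.24-fold. Nkiras1, a small GTPase-like protein that slows IκB breakdown in human cells, rose 1.62-fold, to 37.7 ± 3.37 CPM in NPS-EMSC, against 23.2 ± 1.43 CPM in EMSC (SD, n = 3 each). Other genes of the list were lower. Tnip1, whose product binds A20, was at 86.5 ± 2.12 CPM in NPS-EMSC and 110.0 ± 2.90 CPM in EMSC, and Zc3h12a, the gene of the cytokine mRNA-cutting enzyme regnase-1, fell to 18.1 ± 0.786 CPM in NPS-EMSC, against 26.3 ± 2.22 CPM in EMSC (edgeR adjusted p = 8.76e-06).

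Known target genes of NF-κB went both ways. Of 43 listed genes 31 were tested, and 14 were called higher, 11 lower and 6 were not called, where 29.7% of all tested genes were called higher and 29.5% lower. The median log2 fold change was 0.21 and the median absolute value 0.94, against 0.34 over all genes tested. The list was chosen with earlier results of these data known and 12 of its genes were untested. The contrast is thus a description of this list and no test of NF-κB targets. The complement gene C3 fell to 286, 270 and 272 CPM in NPS-EMSC, against 1641, 1848 and 1809 CPM in EMSC (log2 fold change -2.68, SE 0.05, edgeR adjusted p = 2.41e-23). Cx3cl1, the fractalkine chemokine, fell to 0.328 ± 0.141 CPM in NPS-EMSC, against 10.1 ± 0.889 CPM in EMSC. The adhesion gene Vcam1, the bacterial lipoprotein receptor gene Tlr2 and the stromelysin gene Mmp3 were lower too, at log2 fold changes of -2.54 for Vcam1, -2.89 for Tlr2 and -1.001 for Mmp3. Of the tested targets, 6 were higher and 9 lower by at least 2-fold. For scale, 83.0% of all tested genes changed by less in absolute size than Nfkbia, at a log2 fold change of -0.94.

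Other targets rose. Ccl7, a monocyte chemokine, had 115, 142 and 118 CPM in NPS-EMSC and 26.2, 29.3 and 24.7 CPM in EMSC (log2 fold change 2.22, SE 0.08, edgeR adjusted p = 1.41e-12). Plau, the urokinase gene, rose to 43.9 ± 2.46 CPM in NPS-EMSC, against 14.6 ± 1.40 CPM in EMSC (SD, n = 3 each), and Sod2, mitochondrial superoxide dismutase, rose 1.82-fold. Chosen for mention once their values were known, the interleukin-6 gene Il6 rose 4.49-fold and the tissue factor gene F3 6.38-fold, while the neutrophil chemokine genes Cxcl1 and Cxcl6 fell 4.36-fold and 5.22-fold. Icam1, named likewise as a classical target, stood at 283 ± 10.3 CPM in NPS-EMSC and 278 ± 4.37 CPM in EMSC, with an interval of the log2 fold change from -0.066 to 0.12 and no stable sign across the alternatives. Tnf, Il1b and Nos2 held at most 1 read in any library and were not tested. Tnf, Il1b and Nos2 too were named after the counts were seen. Leukocytes also use Tlr2. Of their 10 tested markers, given above, 8 were called lower and 2 higher. The part of leukocytes in the fall of Tlr2 was not tested.

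**Figure D4:**
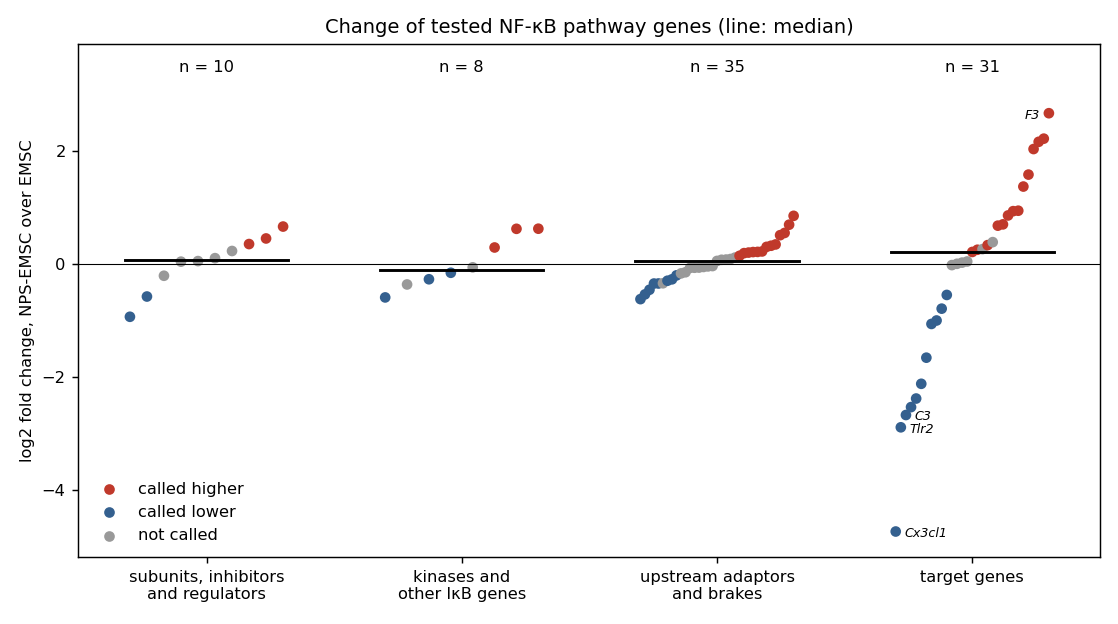
Log2 fold change of NPS-EMSC over EMSC (y axis) of every tested gene in 4 groups of NF-κB pathway genes, ordered by value within a group and coloured by call, with the median as a line and n as the number tested. The first 3 groups lie within 1 of 0, while target genes reach from -4.74 for Cx3cl1 to 2.67 for F3.

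A κB match lay in the promoter windows of 5 of 11 target genes called higher and 5 of 9 called lower for which a window was available. Over all tested genes with a window the share was 4.61%. Of the 6 kinase and other IκB genes with a window, 0 had a match, which is close to that share and is no result about them. Of all 32 listed targets with a window, uncalled and untested ones included, 11 held a match. Among the 28 upstream genes with a window, 2 did (7.14%). Genes with a match, the members included, thus comprised ones that rose, fell or were not called. Whether a match goes with a change was not tested.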

How the data were processed

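The deposited data are raw counts and FPKM values from the authors for 20653 genes, each with 1 column per library, matched to samples by title. Per the submitters' processing notes, the tools were HISAT2, HTSeq and StringTie, with fastp, DESeq and R 3.2.0. Genome build, annotation and strand setting: not given in the sources used here. The promoter coordinates are those of RefSeq on GRCr8, matched by symbol. Counts divided by FPKM and library total gave 1 fixed length per gene, to within 0.1 percent, so the FPKM values are the counts rescaled.

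Counts were tested in R 4.3.3 with edgeR 4.0.16 (TMM, filterByExpr with a minimum count of 10 and a minimum total of 15, robust glmQLFit and glmQLFTest), all genes in 1 fit of the 6 libraries. CPM values are scaled by TMM library totals. Positive log2 fold changes mean higher in NPS-EMSC (prior count 2). The SE was derived from the log2 fold change and the F statistic, and 95% intervals use it. Alternatives used DESeq2 1.42.0 and limma 3.58.1. The procedure was tested on simulated data. The members and gene lists were chosen with earlier results of these data known. Genes named are the 10 members, the 8 kinase and other IκB genes, and the called genes with the smallest p of the other lists (6 upstream, 8 targets, 2 per marker list) with Ptprc, and others are marked in the text.

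RefSeq lists no other gene overlapping any of the 10 members (0 overlapping genes). Counts of libraries of 1 group differed by more than sampling noise, so none was treated as a repeat deposit of another. That comparison does not show that they are separate cultures.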

Additional observations from a re-analysis of the deposited data

How the results depend on the processing

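Results of the test across genes were recomputed under 17 alternatives (other scaling factors, filters, tests, units, a stricter threshold, the replicate block and each library left out), except that Nfkbid and Ptprc had values in 14, since stricter filters removed them. The subunit shares had 7. The calls on Nfkb1, Nfkb2, Relb and Nfkbia held under all 17, with log2 fold changes of -0.62 to -0.55, 0.28 to 0.38, 0.53 to 0.73 and -1.003 to -0.88. With each library left out, members called higher numbered 2 to 4 and lower 2 to 3. All genes called ranged from 7121 to 8914, and without a library from 7870 to 8341. The difference in the Nfkb1 share ranged from -13.4 to -12.0. On log2(FPKM + 1), log2(FPKM + 0.1) and unfiltered log2(FPKM + 1) values, upstream genes called higher numbered 7 in place of 13. On the same scales Nfkbie changed sign at -0.006, and Nfkbiz did so at -0.021 without NPS-EMSC replicate 2 (-0.021 to 0.107 with each library left out), neither being called. Icam1, not called, changed sign at -0.008 with upper-quartile factors, at -0.019 on the 3 FPKM scales and at -0.001 without NPS-EMSC replicate 2 (-0.001 to 0.05 with each library left out). The cause was not tested. Same-numbered libraries did not deviate together (correlations -0.06, 0.09 and 0.06), so the numbers were not taken as pairs, and with the replicate block 8588 genes were called, 3 members higher and 2 lower, and Ikbkg was the named gene whose call changed (adjusted p = 0.0521). Low counts left 6148 genes untested, among them 12 of the 43 listed targets.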

Other observations

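Within NPS-EMSC most of the 10 genes shared the same extreme libraries. Over all 10, 7 were lowest in replicate 1 and 8 highest in replicate 2, and the subunit gene Nfkb2 was among both. Nfkbia, Nfkbie, Nfkbiz, Tnfaip3 and Bcl3 were each lowest in replicate 1 and highest in replicate 2 (5 of 5), where 34.6% of all tested genes were lowest in replicate 1 and 37.1% were highest in replicate 2. Those shares are separate, and the share of all tested genes with both at once was not computed. The highest library exceeded the lowest by 1.37-fold in Tnfaip3, 1.19-fold in Nfkbie and Nfkbiz, 1.18-fold in Nfkbia and 1.08-fold in Bcl3. In EMSC 3 of these 5 were lowest in replicate 1 and 3 of 5 highest in replicate 3. These genes share libraries, and the pattern was noticed after the values were seen and was not tested.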
